A study of Mus musculus with 12 samples.

Results

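The salt-inducible kinases Sik1, Sik2 and Sik3 are 3 of the 41091 genes counted by RNA-seq of mouse hippocampus, and they were taken by gene symbol. Slices were cut from C57BL/6 mice of 2 to 3 months (Wild type). These slices, from which the dentate gyrus had been cut away, were frozen 1 hr or 3 hr after a chemical induction of long-term potentiation (LTP) or after a mock treatment. LTP slices received 50 uM forskolin, which switches on adenylyl cyclase, for 5 min, and then forskolin with 30 mM KCl and 10 mM Ca2+ for 5 min more. Control slices received 0.2% DMSO in their bathing solution for 10 min. Each of the 4 groups (1 hr control, 1 hr LTP, 3 hr control, 3 hr LTP) had 3 libraries, and 1 animal gave both an LTP and a control library at its time point. Ribosome-depleted total RNA of whole slices was sequenced. Only samples that passed a PCR test were sequenced, with a rise of Arc and of the short Homer1 form and no change of long Homer1 or Hprt. The LTP groups were thus chosen for a response of induced transcripts, so rises of other induced genes come from selected samples.

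Salt-inducible kinases belong to the family of AMP-activated protein kinase. The kinase LKB1 switches them on, and protein kinase A (PKA), which cAMP activates, phosphorylates them and holds them inactive. While active, they phosphorylate the CREB coactivators (CRTC proteins) and the class IIa histone deacetylases, which then stay in the cytoplasm bound to 14-3-3 proteins. A rise of cAMP therefore releases CRTC into the nucleus to work with the transcription factor CREB. Sik1 is itself a known CREB target, and its new protein closes a negative feedback loop on CRTC. Sik2 and Sik3 are generally regarded as the more constantly expressed members.

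The 3 genes differ in size and setting (GRCm38, GENCODE M21). Sik1 (ENSMUSG00000024042) is compact, spanning 11.6 kb on the minus strand of chromosome 17 from 31844250 to 31855804. Sik2 (ENSMUSG00000037112) spans 116 kb on the minus strand of chromosome 9 from 50892801 to 51009073, and Sik3 (ENSMUSG00000034135) spans 211 kb on the plus strand of the same chromosome from 46012820 to 46224194. The exons of Sik1 and Sik3 overlap 0 bases of other annotated genes. Sik2 shares 15% of its exonic bases with Ppp2r1b, a regulatory subunit gene of protein phosphatase 2A on the opposite strand.

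Because the protocol raises cAMP, the promoters of Sik2 and Sik3 were searched for letters of the cAMP response element, to which CREB binds. The window ran from 250 bases before to 50 bases after the start in the RefSeq promoter table (GRCm38.p6). It held Sik2 and Sik3 but had no entry for Sik1, whose promoter was therefore not searched. On both strands the full element TGACGTCA had 0 matches in both windows, and it occurred in 1.79% of 32851 promoter windows of the same length. The shorter TGACG, which is part of the full element, matched 2 times in Sik2 and 3 times in Sik3. It occurred in 20.8% of the windows, and 5.01% held at least 2 matches. The sequences below run 5′ to 3′ along each gene, and capitals mark the match (TGACG, or CGTCA where it lies on the other strand).
Sik2, chr9:51009058-51009086, minus strand: gccccggcccccTGACGtcggctcacgtc
Sik2, chr9:51009045-51009073, minus strand: gacgtcggctcaCGTCAgcgccggcgcgc
Sik3, chr9:46012675-46012703, plus strand: ggcttcgggcagTGACGcgcgtccgcacg
Sik3, chr9:46012692-46012720, plus strand: cgcgtccgcacgTGACGcgcggttgccat
Sik3, chr9:46012751-46012779, plus strand: cgcctcccggagTGACGtctgtcggcaac
The Sik2 matches overlap its transcription start (-1 to 4) and the bases just inside the gene (13 to 17), and those of Sik3 lie upstream, from -133 to -53. These are matches of letters, and binding was not measured here.

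Library totals ran from 37118382 to 50815001 counts, and the lowest count of any of the 3 kinases in a library was 648. Levels are CPM, counts scaled to library size with TMM over the 12 libraries. The study set 1 hr control replicate 2 aside as an outlier of its clustering, and on the first principal component (41.6% of the variance) it scored -8.64, against -42.4 to -26.8 in the other 1 hr libraries and 13.5 to 44.2 in the 3 hr libraries. It is left out of the tests below, and the effects on the 3 kinases are also given with it. Markers of pyramidal neurons were abundant in every library (summed level of Slc17a7, Neurod6 and Camk2a 2387 to 3695 CPM), and those of dentate granule cells were still detected (Prox1, Dsp and C1ql2, 111 to 214 CPM). In bulk slices, fewer cells of a type and less RNA per cell cannot be told apart.

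Sik1 rose after LTP at both time points, by a little over 2-fold. In 1 hr controls its level was 16.7 and 18.9 CPM (22.1 CPM in the set-aside library), and in the 1 hr LTP libraries 42.5, 37.9 and 34.4 CPM. In 3 hr controls it was 28.0, 26.6 and 27.5 CPM, and in the 3 hr LTP libraries 63.8, 52.0 and 72.1 CPM. At each time point every LTP library lay above every control library, the set-aside one included. The 1 hr means were 17.8 ± 1.56 CPM (SD, n = 2) and 38.3 ± 4.04 CPM (SD, n = 3), and the 3 hr means were 27.4 ± 0.688 and 62.6 ± 10.1 CPM (SD, n = 3).

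The rise of Sik1 was 2.17-fold at 1 hr (log2 fold change 1.12, SE 0.103, adjusted p 2.20e-05) and 2.32-fold at 3 hr (log2 fold change 1.21, SE 0.114, adjusted p 0.00172) in edgeR's quasi-likelihood test. Calls needed both an adjusted p below 0.1 and a change beyond 1.2-fold, which 0.778% of all tested genes met in the higher direction at 1 hr and 5.07% at 3 hr. By p, Sik1 ranked 24 among 17736 genes at 1 hr and 25 among 17508 genes at 3 hr. With the set-aside library its 1 hr log2 fold change was 1.00 (adjusted p 1.36e-04, edgeR quasi-likelihood). The ratio of LTP to control within an animal was 2.54, 1.71 and 1.82 at 1 hr in the order of the replicate numbers, and the 3 hr animals gave 2.28, 1.95 and 2.62.

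Sik2 had a smaller rise that passed at 3 hr. Its level was 30.0 and 27.6 CPM in 1 hr controls (32.9 CPM in the set-aside library) and 40.1, 35.4 and 33.5 CPM in the 1 hr LTP libraries. At 3 hr it was 36.7, 35.2 and 36.8 CPM in controls and 51.4, 51.9 and 58.3 CPM after LTP. All LTP libraries lay above all controls at both times, although at 1 hr the lowest LTP library and the set-aside control were only 33.5 and 32.9 CPM. LTP libraries all lay above the fitted controls in 10.3% of all tested genes at 1 hr and 12.4% at 3 hr.

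At 3 hr Sik2 was 1.51-fold higher after LTP (log2 fold change 0.59, SE 0.0741, adjusted p 0.00551, edgeR quasi-likelihood), from 36.2 ± 0.910 to 53.9 ± 3.85 CPM (SD, n = 3). At 1 hr it was 1.27-fold higher (log2 fold change 0.35, 95% interval 0.15 to 0.55), which did not pass (adjusted p 0.183, edgeR quasi-likelihood, unadjusted p 0.00194). That call turned on the setting. It passed with the replicate number as a block for the animal (0.36, adjusted p 0.0310, edgeR quasi-likelihood), in which the LTP library of the animal without a fitted control carries no weight. It did not pass once the set-aside library was included, without the block (0.28, adjusted p 0.375) or with it (0.28, adjusted p 0.628, edgeR quasi-likelihood). The 1 hr animals had ratios of 1.34, 1.08 and 1.21, and the 3 hr animals 1.40, 1.48 and 1.58.

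The library kit kept strand, but whether the counting used it is not given in the sources used here, so reads of Ppp2r1b could enter the counts of Sik2 through the shared exons, which hold 50 of its 2831 coding bases. Ppp2r1b itself ran at 13.7 ± 0.0267 CPM in 1 hr controls (SD, n = 2), 15.3 ± 1.92 CPM after LTP at 1 hr and 20.7 ± 0.231 CPM in 3 hr controls (SD, n = 3), and at 19.4 to 20.5 CPM after LTP at 3 hr. Its 3 hr LTP effect was -0.03 on the log2 scale (95% interval -0.18 to 0.12, adjusted p 0.838, edgeR quasi-likelihood).

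Sik3 was the kinase with the highest level and the smallest response. Its level was 109.5 and 104 CPM in 1 hr controls (108 CPM in the set-aside library) and 105, 104 and 108 CPM after LTP at 1 hr, so these groups overlapped. At 3 hr it was 113, 119.7 and 116 CPM in controls and 137, 124 and 153 CPM after LTP, where the groups did not overlap. The 1 hr LTP effect was 0.999-fold (log2 fold change -0.0013, 95% interval -0.15 to 0.14, adjusted p 0.999, edgeR quasi-likelihood), and the interval leaves room for a small change either way. With the set-aside library the log2 fold change was -0.0043 (adjusted p 0.992, edgeR quasi-likelihood).

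At 3 hr the effect on Sik3 was 1.21-fold (log2 fold change 0.27, 95% interval 0.08 to 0.45), just outside the threshold at an adjusted p of 0.110 (edgeR quasi-likelihood). With the replicate block it passed (0.26, adjusted p 0.0684, edgeR quasi-likelihood), and so it did without 3 hr LTP replicate 2 (0.35, adjusted p 0.0121). It did not pass without any other library (adjusted p 0.163 to 0.328, edgeR quasi-likelihood), and was lowest without 3 hr LTP replicate 3 (0.17). The ratios within animals were 1.21, 1.04 and 1.32, the smallest in animal 2. Among the 3 hr LTP libraries, that of animal 2 had the lowest level of both Sik1 and Sik3, but not of Sik2.

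**Figure D1:**
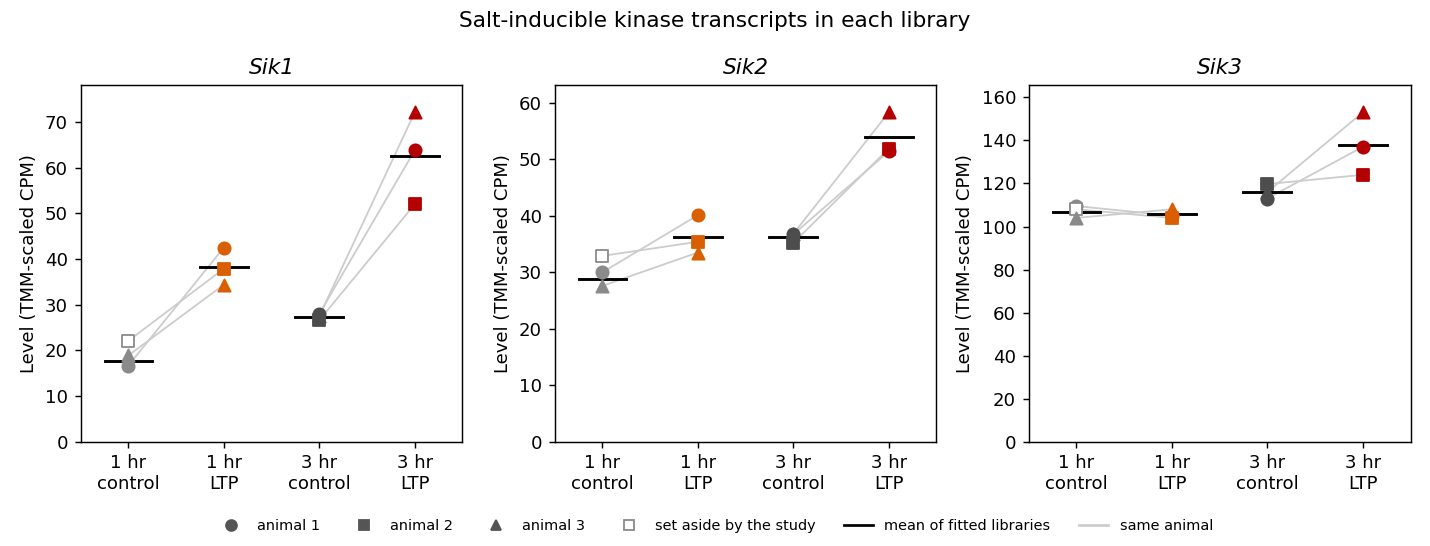
Level of each kinase (TMM-scaled CPM, linear axis from 0) in the 12 libraries, with a marker shape for each animal number, grey lines joining LTP and control slices of an animal, black bars at the mean of the fitted libraries and an open symbol for the set-aside library. Sik1 is separated between LTP and control at both times, Sik2 more widely at 3 hr than at 1 hr, and Sik3 only at 3 hr.

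The effects at 3 hr and 1 hr were then compared with each other in 1 model of the 4 groups. The difference of log2 fold changes was 0.11 for Sik1 (95% interval -0.26 to 0.47), 0.25 for Sik2 (-0.0089 to 0.51) and 0.28 for Sik3 (0.04 to 0.51). None of the 3 passed after adjustment (adjusted p 0.971, 0.773 and 0.659, edgeR quasi-likelihood), and the unadjusted p of Sik3 was 0.0229. In all, 0.0592% of the genes passed this test, and the other tools passed none of the 3 kinases. With the set-aside library the differences were 0.21 for Sik1, 0.31 for Sik2 and 0.27 for Sik3 (lowest adjusted p 0.616, edgeR quasi-likelihood). A larger effect of LTP on Sik2 or Sik3 at 3 hr than at 1 hr was therefore not shown, while the intervals allow one. For Sik1 the interval spans a smaller and a larger effect.

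Time after treatment also went with higher levels in slices that had no LTP induction. Between 1 hr and 3 hr controls Sik1 rose 1.49-fold (log2 fold change 0.58, SE 0.130, adjusted p 0.00471) and Sik2 1.22-fold (0.29, SE 0.0916, adjusted p 0.0274) in edgeR's quasi-likelihood test. Sik3 differed by 0.08 (95% interval -0.09 to 0.26, adjusted p 0.465, edgeR quasi-likelihood). This comparison called 16.1% of all genes higher, so a rise in it is common, and time cannot be told apart from animal, since different mice are assumed for each time. With the set-aside library Sik1 kept its call (0.50, adjusted p 0.00807), and Sik2 fell under the fold change threshold (0.26, adjusted p 0.0418, edgeR quasi-likelihood). It also lost its call without 1 hr control replicate 3 (0.27, adjusted p 0.151, edgeR quasi-likelihood). Ppp2r1b, with which Sik2 shares exons, rose by more than Sik2 between controls (0.55, SE 0.0995, adjusted p 0.00132, edgeR quasi-likelihood), and its part in the counts of Sik2 was not tested.

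Between 1 hr and 3 hr LTP slices all 3 kinases rose, where 18.6% of all genes were called higher. The log2 fold changes were 0.69 for Sik1 (SE 0.111), 0.54 for Sik2 (SE 0.0806) and 0.36 for Sik3 (SE 0.0727), with a highest adjusted p of 0.00186 (edgeR quasi-likelihood). Ppp2r1b rose there too (0.36, adjusted p 0.00625, edgeR quasi-likelihood). These time comparisons share libraries with those of LTP against control. Markers of several cell types also moved with time. In LTP slices Cx3cr1 (-0.75) and P2ry12 (-1.39) of microglia, Neurod6 (-0.91), Gad2 (-0.44) and the mural genes Acta2 (-0.35) and Myh11 (-0.38) were lower at 3 hr, and Fibcd1 (0.47), Pou3f1 (0.41), Mbp (0.28) and the endothelial gene Cldn5 (0.41) were higher. In controls 2 of 3 microglial markers, 2 of 3 endothelial markers and 2 of 3 mural markers were lower at 3 hr, as were Neurod6 of pyramidal neurons (-1.10) and Gad2 of inhibitory neurons (-0.41). Higher at 3 hr were the CA1 markers Fibcd1 (0.40) and Pou3f1 (0.54), Slc32a1 of inhibitory neurons (0.55) and Mbp of oligodendrocytes (0.52). Of all genes 16.8% were called lower in this comparison. The summed microglial level was 145 CPM in both fitted 1 hr controls and 93.6 to 105 CPM in 3 hr controls, and the part of these markers in the kinase levels was not tested. Between LTP and control at 3 hr 0 of the 27 markers passed (edgeR quasi-likelihood), with 3 at an unadjusted p under 0.05, which 3540 of 17508 genes reached, and 1 called by DESeq2. At 1 hr 1 passed, the mural gene Myh11, which was lower (-0.68, adjusted p 0.0465, edgeR quasi-likelihood). At 1 hr the summed endothelial level was 75.2 to 82.3 CPM in controls and 64.1 to 66.1 CPM after LTP, and the summed mural level was 31.0 CPM in both controls and 21.1 to 27.5 CPM after LTP. Their part in the 1 hr values was not tested.

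**Figure D2:**
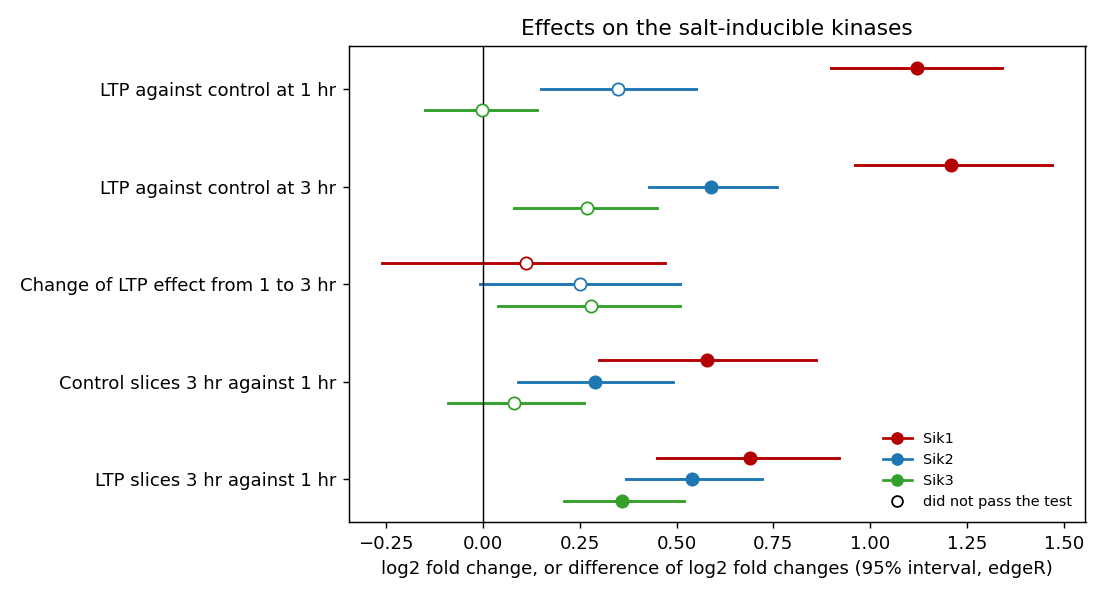
Log2 fold change of each kinase, or difference of log2 fold changes in the third row, with 95% intervals from edgeR; filled points passed the test and open points did not. Sik1 has the largest fold change in both comparisons of LTP with control (1.12 and 1.21), followed by Sik2 (0.35 and 0.59) and Sik3 (-0.0013 and 0.27).

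Across the 4 groups the level of Sik1 ordered as 1 hr control, 3 hr control, 1 hr LTP, 3 hr LTP, and no neighbours in this order overlapped among the 12 libraries, which held, in any order of the groups, for 0.829% of 18584 genes. For Sik2 the 3 hr control (35.2 to 36.8 CPM) and 1 hr LTP libraries (33.5 to 40.1 CPM) overlapped in the middle of the order. For Sik3 both 1 hr groups overlapped, and the 3 hr control and 3 hr LTP groups lay above them in turn.

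To compare the kinases with each other, levels were divided by exonic length (CPM per kb). In 1 hr controls the level was 3.47 ± 0.305 CPM per kb for Sik1, 3.02 ± 0.176 for Sik2 and 11.4 ± 0.427 for Sik3 (SD, n = 2). In 3 hr LTP slices it was 12.2 ± 1.96 for Sik1, 5.65 ± 0.404 for Sik2 and 14.8 ± 1.57 for Sik3 (SD, n = 3). Sik1 was above Sik2 in every group on this scale. The study's text speaks of reads in coding regions, and per coding length (2337, 2831 and 4108 bases for Sik1, Sik2 and Sik3) Sik1 lay below Sik2 in both control groups, at 7.62 ± 0.669 against 10.2 ± 0.595 CPM per kb at 1 hr (SD, n = 2) and 11.7 ± 0.295 against 12.8 ± 0.322 at 3 hr (SD, n = 3). It lay above Sik2 in both LTP groups on either scale, and Sik3 was highest in every group on both. The coding scale was added after the data had been seen.

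Sik1 made up 19.4% ± 2.02 of the summed level of the family in 1 hr controls (SD, n = 2), 32.9% ± 2.00 after LTP at 1 hr, 24.7% ± 0.780 in 3 hr controls and 37.2% ± 1.85 after LTP at 3 hr (SD, n = 3). The share of Sik3 went the other way, from 63.8% ± 1.32 in 1 hr controls (SD, n = 2) to 50.2% ± 2.76 after LTP at 1 hr (SD, n = 3). At 3 hr it went from 57.8% ± 1.28 in controls to 45.4% ± 0.605 after LTP (SD, n = 3). Shares of a whole are linked, and the level of Sik3 itself did not fall in this way. In controls and after LTP it was 11.4 and 11.3 CPM per kb at 1 hr and 12.5 and 14.8 at 3 hr. Sik2 made up between 16.1% and 18.8% in every library on this scale. Per coding length, the share of Sik1 was 17.4% and 29.8% in 1 hr control and LTP slices and 22.2% and 33.6% in those of 3 hr. That of Sik3 was 59.3% and 46.9% at 1 hr and 53.6% and 42.4% at 3 hr, and the group means of Sik2 ran from 23.2% to 24.2%. The summed level was 17.7 and 18.1 CPM per kb in 1 hr controls, 21.8 to 23.8 after LTP at 1 hr, 21.4 to 21.7 in 3 hr controls and 28.9 to 36.6 after LTP at 3 hr.

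**Figure D3:**
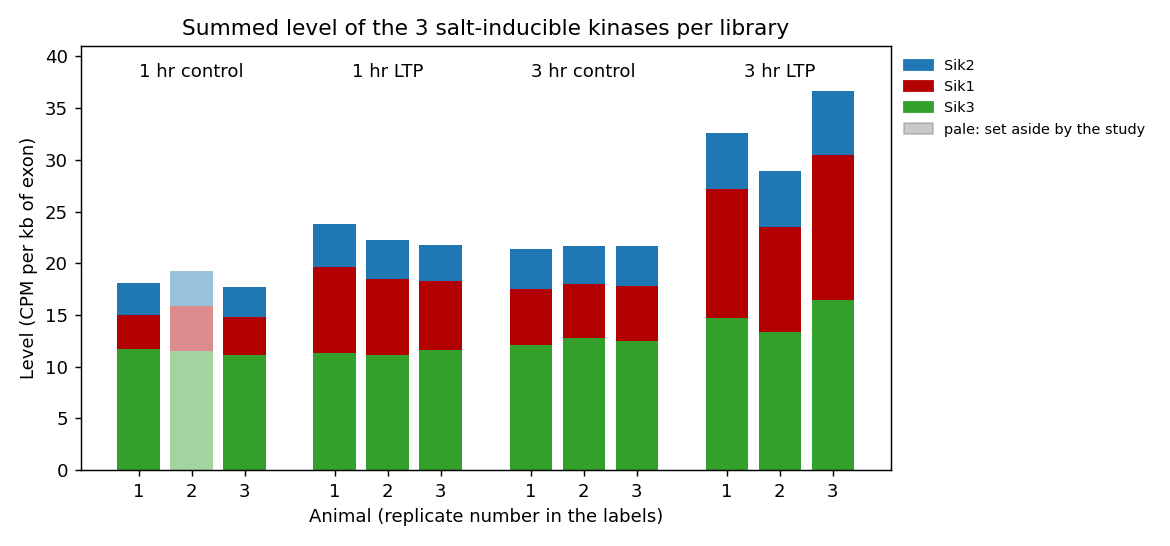
Level per exonic length (CPM per kb, linear axis from 0) of Sik3, Sik1 and Sik2 stacked for each library, with the set-aside library pale. The Sik1 segment is taller in LTP than in control libraries at both times, and the summed bar is highest in the 3 hr LTP libraries (28.9 to 36.6 CPM per kb).

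The ratio of 2 kinases within a library does not depend on how libraries are scaled. LTP moved the log2 ratio of Sik1 to Sik3 by 1.12 at 1 hr and 0.94 at 3 hr, and that of Sik1 to Sik2 by 0.77 and 0.61. The ratio of Sik2 to Sik3 moved by 0.35 and 0.33. The 6 comparisons are not separate, since the ratio of Sik1 to Sik3 follows from the other ratios at each time. The exact two-sided permutation p was 0.10, the smallest these group sizes allow, in 5 of them and 0.20 for Sik2 to Sik3 at 1 hr, so none could pass 0.05.

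The rest of the pathway was read from 8 lists of 61 genes put together from general knowledge with earlier results of these data known, so their counts are a description, of which 8 were called at 1 hr and 14 at 3 hr, all higher, where 0.789% and 6.60% of all tested genes were called in either direction. Upstream of the kinases, 0 of 5 genes of the LKB1 complex were called at either time. Stk11, which encodes LKB1, differed by 0.06 on the log2 scale at 1 hr and 0.002 at 3 hr. Its scaffold gene Cab39 had -0.08 and -0.19, Cab39l 0.06 and -0.09, Strada -0.0092 and 0.16, and Stradb 0.04 and -0.03. Of 9 PKA subunits and PKA inhibitors 0 were called, within -0.16 to 0.01 at 1 hr and -0.26 to 0.10 at 3 hr. The lowest adjusted p among these 14 genes was 0.136 (edgeR quasi-likelihood, at 3 hr). At an unadjusted p under 0.05 (1190 of all 17736 genes at 1 hr) there was 1 PKA gene at 1 hr, and 1 gene of each list at 3 hr, and DESeq2 called 0.

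The substrates of the kinases had small differences at 1 hr, and 1 of 7 rose at 3 hr. Hdac4, a class IIa deacetylase, was 1.27-fold higher at 3 hr (log2 fold change 0.34, SE 0.0901, adjusted p 0.0760, edgeR quasi-likelihood), and this call was lost in 5 of 6 fits with a library removed, at fold changes of 0.23 to 0.38 on the log2 scale. Crtc1, the main CREB coactivator of hippocampal neurons, had 0.11 at 1 hr and 0.41 at 3 hr, where the libraries spread too widely to pass (98.2 ± 8.78 CPM in controls and 128 ± 27.8 CPM after LTP, SD, n = 3, adjusted p 0.161, edgeR quasi-likelihood). DESeq2 called it at 3 hr, beside Hdac4. Crtc2 had 0.09 and 0.08, Crtc3 0.01 and -0.01, Hdac5 0.06 and 0.19, Hdac7 0.01 and 0.16, and Hdac9 0.0032 and 0.17. The median of this list was 0.06 at 1 hr and 0.17 at 3 hr, against -0.001 and -0.0025 over all genes tested.

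Of the 5 CREB factors and acetyltransferases, 0 were called at 1 hr by edgeR or DESeq2 (2 at an unadjusted p under 0.05) and 3 rose at 3 hr. Crem, which also encodes the inducible repressor ICER, rose 1.48-fold at 3 hr (log2 fold change 0.57, SE 0.0988, adjusted p 0.0216), from 24.9 ± 2.65 to 36.3 ± 3.44 CPM (SD, n = 3), and had 0.22 at 1 hr. The acetyltransferase gene Ep300 rose by 0.62 (SE 0.0851, adjusted p 0.00837) and Crebbp by 0.48 (SE 0.127, adjusted p 0.0771) in edgeR's quasi-likelihood test. The call of Crebbp was lost in 5 of 6 fits with a library removed (0.36 to 0.56), and that of Crem without 3 hr control replicate 2 (0.55, adjusted p 0.124, edgeR quasi-likelihood). Creb1 had -0.02 and -0.12, and Atf1 -0.04 and -0.14, at 1 hr and 3 hr.

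Of 7 genes of 14-3-3 proteins, which bind the phosphorylated substrates, 0 were called, within -0.20 to 0.28 on the log2 scale at 1 hr and -0.20 to -0.10 for all 7 at 3 hr. Of 5 calcineurin subunit genes, whose phosphatase acts against the kinases on CRTC, 0 were called, within -0.57 to 0.06 at 1 hr and -0.10 to 0.44 at 3 hr. The -0.57 and 0.44 both belong to Ppp3r2, whose group means were only 0.299 to 0.493 CPM. The other calcineurin genes lay within -0.06 to 0.06 at 1 hr and -0.10 to 0.05 at 3 hr. Among the 11 other LKB1-activated kinases (Prkaa1, Prkaa2, Brsk1, Brsk2, Nuak1, Nuak2, Mark1 to Mark4 and Snrk), which are relatives of the salt-inducible kinases, 0 were called at either time. Their log2 fold changes ran from -0.13 to 0.13 at 1 hr and from -0.16 to 0.14 at 3 hr, so each of them lay below Sik1 and Sik2 at both times. For these 23 genes the lowest adjusted p was 0.636 at 1 hr and 0.274 at 3 hr (edgeR quasi-likelihood). Of them 1, a 14-3-3 gene at 1 hr, had an unadjusted p under 0.05, and DESeq2 called 0.

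The last list held genes that CREB and CRTC are known to drive. Of its 12 genes, 8 were called higher at 1 hr and 10 at 3 hr, with medians of 0.67 and 0.58. The rises at 1 hr were in Fos (1.97), Nr4a1 (1.70), Dusp1 (1.40), Nr4a2 (1.03), Gem (0.90), Rgs2 (0.77), Per1 (0.57) and Nr4a3 (0.47). At 3 hr these were 1.48 for Fos, 1.09 for Nr4a1, 0.63 for Dusp1, 0.96 for Nr4a2, 1.17 for Gem, 0.40 for Rgs2, 0.52 for Per1 and 0.70 for Nr4a3, all called. With the set-aside library and no replicate block all 8 kept their call at 1 hr, among them Fos at 1.80 and Nr4a1 at 1.53, and with that library and the block Per1 lost its call (0.49, adjusted p 0.140, edgeR quasi-likelihood). The calls of Dusp1, Rgs2 and Per1 at 3 hr were lost in 4 of 6 fits with a library removed, in which Dusp1 was 0.60 to 0.74, Rgs2 0.37 to 0.42 and Per1 0.47 to 0.61. Nr4a3 lost its 3 hr call without any 1 of the 3 hr controls (0.63 to 0.74, highest adjusted p 0.141, edgeR quasi-likelihood) and its 1 hr call without 1 hr control replicate 1 (0.43, adjusted p 0.242). Without 3 hr LTP replicate 3 both Dusp1 and Per1 kept their call at a lower fold change, 0.37 and 0.33.

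The other 2 called at 3 hr were phosphodiesterases, enzymes that break down cAMP and so also act against its signal. Pde4b rose by 0.51 (SE 0.0747, adjusted p 0.0111) and Pde4d by 0.35 (SE 0.0794, adjusted p 0.0494) in edgeR's quasi-likelihood test, and the call of Pde4d was lost in 4 of 6 fits with a library removed (0.33 to 0.38). At 1 hr their log2 fold changes were 0.21 and 0.10. Bdnf (0.21 and 0.07) and Ppargc1a (-0.08 and 0.31) were called at neither time. For all 61 listed genes the change of effect from 1 hr to 3 hr was called in 0 cases (edgeR quasi-likelihood, lowest adjusted p 0.326). An unadjusted p under 0.05 was reached by 12 of them, and by 1225 of all 18584 genes. Among these were 7 CREB targets and 3 CREB factors or acetyltransferases. Of the 7, Fos, Nr4a1, Dusp1 and Rgs2 had lower log2 fold changes at 3 hr than at 1 hr, and Pde4b, Pde4d and Ppargc1a higher ones. DESeq2 called 2 of the 61, Fos and Dusp1.

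**Figure D4:**
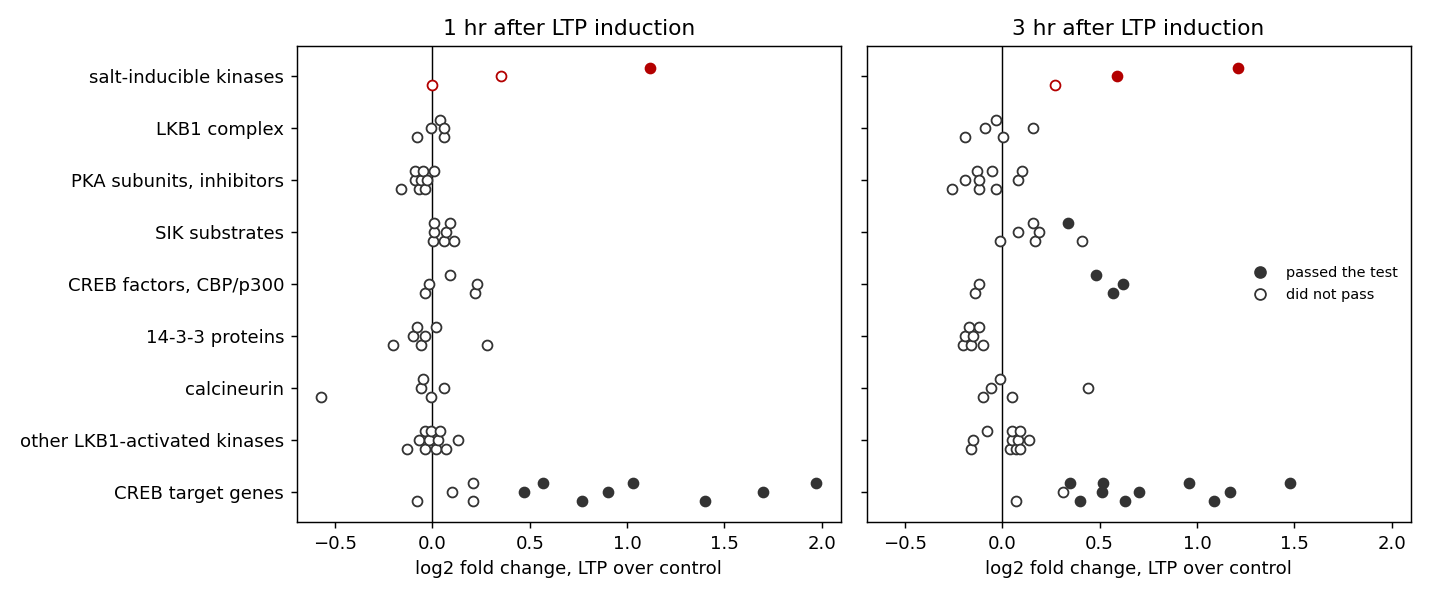
Log2 fold change of LTP over control for the 3 kinases (red) and the 61 listed genes, 1 row for each list, at 1 hr and 3 hr, with filled points for genes that passed the test. Beside the kinases, filled points appear only among CREB targets at 1 hr (8 of 12), and at 3 hr also among SIK substrates (1 of 7) and CREB factors (3 of 5).

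The 3 kinases went together to different degrees across the 11 fitted libraries. The Pearson correlation of log2 CPM was 0.936 for Sik1 and Sik2, 0.844 for Sik2 and Sik3 and 0.709 for Sik1 and Sik3, where libraries share time point, treatment and animal. Among the 14190 genes whose mean reached 1 CPM, the 5 most like Sik1 were Nfil3 (r = 0.978), Bhlhe40 (0.975), Dpm1 (0.970), Dusp5 (0.969) and Phf8 (0.969). Of these, Nfil3 and Bhlhe40 encode transcription factors of the circadian system, and Dusp5 encodes a phosphatase of ERK. The LTP effect on Nfil3 was 0.75 (1 hr) and 0.78 (3 hr) on the log2 scale.

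Sik2 was most like Fosl2 (0.979), Ammecr1l (0.976), Gpr3 (0.972), Rcor1 (0.965) and Slc2a1 (0.965). Fosl2 encodes a partner of the AP-1 complex, Gpr3 a receptor that raises cAMP without a ligand, and Slc2a1 the glucose transporter GLUT1. The genes most like Sik3 were Celsr2 (0.984), Bsn (0.978), Syn1 (0.976), Arhgap17 (0.976) and Plxna1 (0.975), of which Bsn and Syn1 encode presynaptic proteins. Within the groups, after removal of group means, the correlations were 0.37 to 0.80 for the Sik1 set, 0.61 to 0.95 for the Sik2 set and 0.87 to 0.94 for the Sik3 set.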

How the data were processed

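The deposited files are tables of raw counts per gene, 1 for each time point, with 1 column per library. Per the study's methods, the authors prepared stranded libraries of ribosome-depleted RNA, aligned paired reads with STAR 2.4.1c to GRCm38/mm10 and counted them with R packages. Their text speaks of reads in coding regions, while the tables also list non-coding genes, and whether counting used strand is not given in the sources used here. Symbols, positions and lengths came from GENCODE M21 (40217 IDs matched, 874 did not).

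Counts were tested with edgeR 4.0.16 (R 4.3.3; filterByExpr, TMM, quasi-likelihood, Benjamini-Hochberg over all genes tested) and called with the study's thresholds, adjusted p below 0.1 and more than 1.2-fold change. Each time point was fitted alone, and the change of effect and the comparisons of time in a model of 4 groups. The step was also run on simulated counts with known changes. These were larger than the effects on Sik2 at 1 hr and on Sik3 and than the kinases' changes of effect, so the run does not vouch for effects that small. Libraries of 1 number within a time point come from the same animal per the study's methods. The correlation of their deviations ran from -0.131 to 0.187. Replicates are separate animals. Intervals are at 95%. Within-library ratios were tested by exact permutation.

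The kinases, gene lists and markers were chosen with earlier results of these data known. Listed genes are named where called at 1 hr or 3 hr, with others by role, and the 5 genes most like each kinase by correlation. Alternatives were DESeq2 1.42.0, limma-voom 3.58.1, other size factors, no filter, the replicate block, the set-aside library and leaving out each library.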

Additional observations from a re-analysis of the deposited data

How the results depend on the processing

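The rise of Sik1 kept its direction and call in every alternative run, with log2 fold changes of 1.00 to 1.21 at 1 hr and 1.09 to 1.34 at 3 hr, as did that of Sik2 at 3 hr (0.52 to 0.63) and all 3 kinases between LTP slices of both times. Sik2 at 1 hr also passed with DESeq2 (0.35), with no filter on low counts (0.35) and with the replicate block (0.36), and leaving out single libraries gave 0.28 to 0.41, which passed without 1 hr LTP replicate 3 (0.41, adjusted p 0.0323). Sik3 at 3 hr passed with DESeq2 (0.27) and the replicate block (0.26), and leaving out libraries gave 0.17 to 0.35. Sik3 at 1 hr changed sign about 0 with the replicate block (0.007) and without single libraries (-0.04 to 0.03). Without single libraries the change of effect ran from -0.03 to 0.20 for Sik1, from 0.16 (without 1 hr control replicate 1) to 0.33 for Sik2 and from 0.17 (without 3 hr LTP replicate 3) to 0.33 for Sik3, and none passed. Sik2 between control slices lost its call with the set-aside library (0.26), and ran from 0.27 to 0.39 without single libraries. The causes were not tested.

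Genes called at 1 hr numbered 140, 347 with no filter and 69 to 344 without single libraries. At 3 hr they numbered 1155, and 228 to 2170 without single libraries. For the change of effect they numbered 11, 80 with DESeq2, 102 with no filter, 7 with the set-aside library and the replicate block, and 1 to 67 without single libraries. Among listed genes, Per1 at 1 hr lost its call with the set-aside library and the replicate block (0.49) and without 1 hr control replicate 3 (0.45), Nr4a3 at 1 hr without 1 hr control replicate 1 (0.43), and Nr4a3 at 3 hr in 3 of 6 fits without a library. The replicate block changed no other call of a kinase, and was not run for comparisons of time, where animal and time are not separable. No kinase was near the detection limit, with at least 648 counts per library.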
